A study of Rattus norvegicus with 20 samples.

Results

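Among 18166 genes measured under a single symbol in the renal vasculature of rats, 57 carry the names of innate pattern recognition receptors and their relatives. They are 11 Toll-like receptor genes (symbols beginning with Tlr), 13 NOD-like receptor genes (Nlrp, Nlrc, Nlrx, Nod1 and Nod2) and 33 C-type lectin domain genes (Clec). They were taken by symbol, in families chosen with earlier results of these data known. Each was measured by 1 transcript of the array, and none was left out for a low value. The transcripts of 14 of them (2 Tlr, 2 Nlr and 10 Clec) had a mean log2 intensity below 5 and are called dim here. The files give no background level for the array. Near-identical gene copies, such as the Clec2d, Clec2g and Clec4a relatives, Nlrp1a and Nlrp1b, or Tlr1, Tlr6 and Tlr10, may share probes, so the division of signal among them is uncertain.

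The samples were renal vessels of male Wistar Kyoto rats, isolated on sieves and hybridised 1 rat to 1 array, with 5 arrays in each of 4 groups. The groups were P180 rats that had undergone maternal separation (MatSep), P180 controls, P10 MatSep rats and P10 controls, where P10 and P180 are postnatal days. MatSep is a model of early life stress in which pups are taken from the dam for some hours on each of many days after birth, and P10 falls within that period. Control pups stayed with the dam and were not handled. No agent, transgene or altered allele is named for any group. Each group drew on several litters, but the litter of each rat is not given, and sieves with smaller pores were used for neonates, so preparation and age cannot be told apart. Values are log2 of the deposited intensities, and every test is limma over 18511 transcripts with Benjamini-Hochberg adjustment and a threshold of 0.05.

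Toll-like receptors bind microbial products at the cell surface or in endosomes and signal through Myd88 or Ticam1 to NF-kappaB and interferon regulatory factors. NOD-like receptors are cytosolic. Some of them assemble inflammasomes, in which Casp1 matures Il1b and Il18, while Nod1 and Nod2 signal through Ripk2 and Nlrc5 activates MHC class I genes. The Clec genes are united by a protein fold more than by a function. Myeloid members such as Clec7a bind glycans and signal through Syk and Card9, some of the Clec4a branch, such as Clec4a2 in mice, carry an inhibitory motif, several Clec2 members are ligands of lymphocyte receptors, and others such as Clec11a are secreted. In kidney, many of these receptors are known from resident macrophages and dendritic cells, and some also from endothelium and epithelium.

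The arrays of a group correlated at 0.9853 to 0.9956, no 2 arrays held identical values, and array medians lay between 6.00 and 6.18. The first principal component held 71% of the variance. Against marker lists for the labelled tissue, the mean of 12 endothelial markers lay between 9.51 and 10.18 and that of 8 smooth muscle markers between 8.43 and 11.25 over the 20 arrays. The mean of 13 tubule markers lay between 11.07 and 11.65, so tubule RNA was measured on all arrays along with vessel RNA. In whole-tissue RNA, a change in the number of cells of a type and a change in RNA per cell cannot be told apart.

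**Figure D1:**
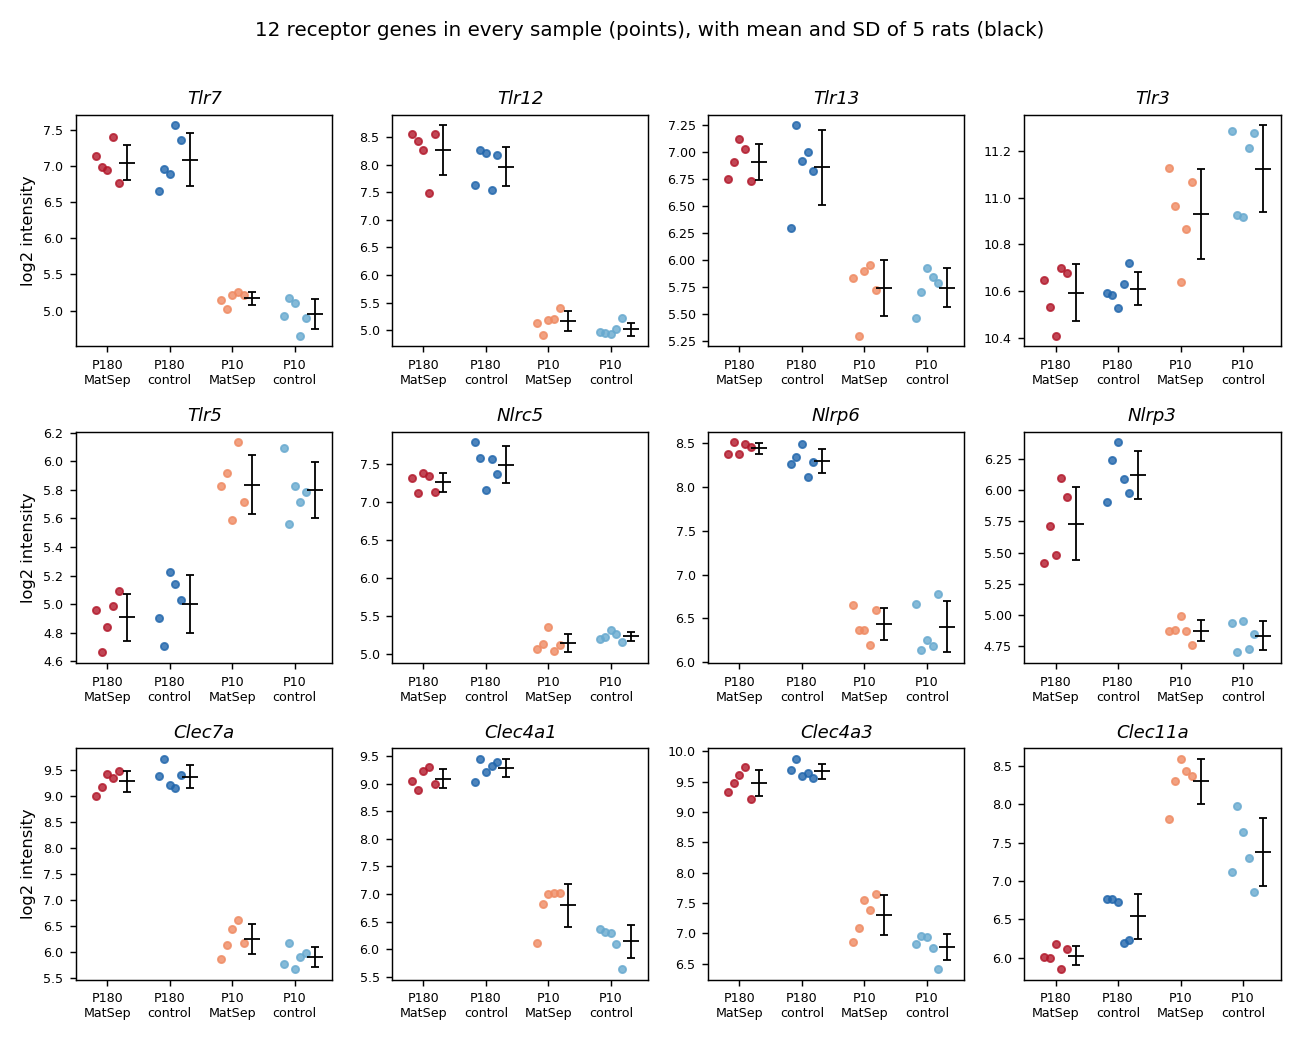
Log2 intensity of receptor genes on each of the 20 arrays, 1 point per rat, for 12 genes and 4 groups of 5, with the mean and SD of each group in black. Clec7a lay between 8.99 and 9.71 on the P180 arrays and between 5.66 and 6.61 on the P10 arrays.

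The receptor genes that passed the test did so between ages, and none did between MatSep and control rats. In MatSep rats, 28 of the 57 genes (49.1%) were higher at P180 than at P10 and 5 (8.77%) were lower, where 27.4% and 22.2% of all transcripts tested were higher and lower. In controls, 34 genes (59.6%) were higher and 4 (7.02%) were lower, where 24.7% and 20.6% of all transcripts were. The median log2 fold change over the 57 genes was 0.26 in MatSep rats and 0.36 in controls, against 0.07 and 0.05 over all transcripts. The P180 and P10 arrays did not overlap for 26 genes in MatSep rats (23 above and 3 below) and for 29 in controls (25 above and 4 below). Over all transcripts, 17.1% lay wholly above and 16.8% wholly below in MatSep rats, and 16.3% and 15% in controls. The 2 contrasts use different rats. Of the genes that rose, 26 did so in both, which is 92.9% of the MatSep list and 76.5% of the control list, and the 4 that fell in controls (Clec11a, Clec2l, Tlr3 and Tlr5) fell in MatSep rats too. Passing in 1 contrast and not in the other does not show a difference between them, which is tested further on. Where a pair of values is given below for a gene with age, the first is that of MatSep rats and the second that of controls.

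**Figure D2:**
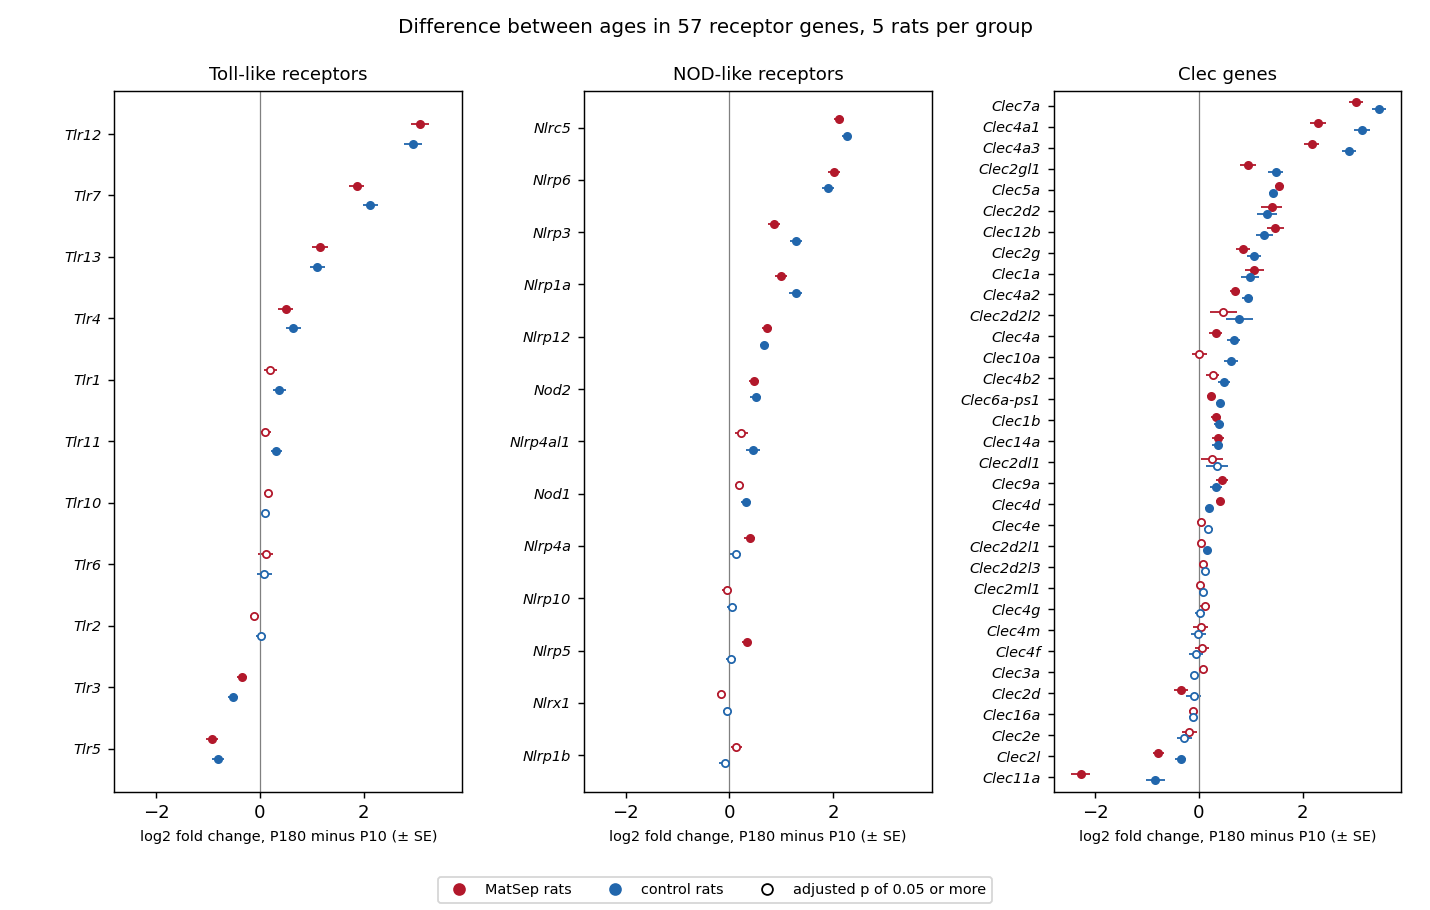
Log2 fold change between ages (P180 minus P10, with SE) for the 57 genes by family, 5 rats per group, MatSep rats in red above controls in blue, with open symbols for an adjusted p of 0.05 or more. The changes ran from -2.28 (Clec11a) to 3.09 (Tlr12) in MatSep rats and from -0.84 (Clec11a) to 3.47 (Clec7a) in controls.

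Among the Toll-like receptors, 4 of 11 (36.4%) rose and 2 (18.2%) fell with age in MatSep rats. These shares were near the 27.4% and 22.2% of all transcripts. In controls 6 (54.5%) rose and 2 (18.2%) fell, where 24.7% and 20.6% of all transcripts did. Tlr12 (transcript 17810734), which in mice recognises a profilin of protozoa, read 8.56, 8.44, 8.27, 7.48 and 8.56 in P180 MatSep rats, against 5.13, 4.92, 5.18, 5.21 and 5.40 in P10 MatSep rats. The controls gave 7.62, 8.26, 8.22, 7.54 and 8.18 at P180, against 4.96, 4.96, 4.93, 5.01 and 5.22 at P10. Every P180 array lay above every P10 array, although P180 MatSep replicate 4 stood well below its group. The log2 fold change with age was 3.09 (SE 0.18, adjusted p = 1.37e-11) in MatSep rats and 2.95 (SE 0.18, adjusted p = 2.78e-11) in controls, or 8.53-fold and 7.71-fold.

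Tlr7 (transcript 17872081), the endosomal receptor for single-stranded RNA, read 7.14, 6.98, 6.94, 7.40 and 6.77 in P180 MatSep rats, against 5.15, 5.03, 5.22, 5.25 and 5.22 in P10 MatSep rats. In the controls it was 6.66, 6.96, 6.88, 7.56 and 7.36 at P180, against 4.92, 5.17, 5.11, 4.65 and 4.90 at P10. The ages were again apart in both arms. Tlr7 thus differed between ages by 1.87 (SE 0.14, adjusted p = 1.39e-09) on the log2 scale in MatSep rats and by 2.13 (SE 0.14, adjusted p = 1.89e-10) in controls. Tlr13, which in mice senses bacterial ribosomal RNA, rose by 1.16 and 1.11 (adjusted p = 1.73e-06 and 3.24e-06), and Tlr4, the lipopolysaccharide receptor, by 0.50 and 0.64 (adjusted p = 0.00755 and 0.00115), in MatSep rats and in controls. Neither Tlr13 nor Tlr4 overlapped between ages in either arm. Tlr2, the receptor for bacterial lipopeptides, had -0.10 in MatSep rats (adjusted p = 0.39) and 0.02 in controls (adjusted p = 0.853). Its partner Tlr6 had 0.12 and 0.09 (adjusted p = 0.52 and 0.639), while Tlr1, the other partner, rose in controls by 0.38 (adjusted p = 0.0136) and had 0.20 in MatSep rats (adjusted p = 0.161). The dim Tlr11, a relative of Tlr12, rose in controls by 0.31 (adjusted p = 0.0202) with overlapping ages, and the dim Tlr10 passed in neither arm (0.15 and 0.10).

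Tlr5 (transcript 17682865), the flagellin receptor, went the other way. It read 4.96, 4.66, 4.84, 4.99 and 5.09 in P180 MatSep rats, against 5.83, 5.92, 5.59, 6.13 and 5.71 in P10 MatSep rats. The controls gave 4.90, 4.71, 5.22, 5.14 and 5.03 at P180, against 6.09, 5.56, 5.83, 5.71 and 5.79 at P10. All P180 arrays lay below all P10 arrays of the same arm. As a log2 fold change this came to -0.93 (SE 0.12, adjusted p = 1.55e-06) in MatSep rats and -0.80 (SE 0.12, adjusted p = 1.17e-05) in controls. Tlr3, the receptor for double-stranded RNA, fell by 0.34 in MatSep rats (adjusted p = 0.00574) and by 0.51 in controls (adjusted p = 0.000159). Its ages overlapped in MatSep rats and not in controls.

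In the NOD-like family, 8 of 13 genes (61.5%) rose and none fell with age, in MatSep rats and likewise in controls. Of all transcripts, 27.4% rose and 22.2% fell in MatSep rats, and 24.7% and 20.6% in controls. Nlrc5 (transcript 17731644), the transactivator of MHC class I genes, read 7.31, 7.11, 7.38, 7.33 and 7.12 in P180 MatSep rats, against 5.07, 5.13, 5.35, 5.04 and 5.11 in P10 MatSep rats. The controls gave 7.78, 7.58, 7.15, 7.56 and 7.36 at P180, against 5.19, 5.22, 5.31, 5.27 and 5.16 at P10. The arrays of the 2 ages were far apart and the P10 arrays lay close together. Set between ages, Nlrc5 changed by 2.11 (SE 0.09, adjusted p = 3.15e-13) on the log2 scale in MatSep rats and by 2.26 (SE 0.09, adjusted p = 1.04e-13) in controls. Nlrp6 (transcript 17622084), which forms an inflammasome in the gut epithelium of mice, read 8.38, 8.52, 8.38, 8.49 and 8.46 in P180 MatSep rats, against 6.65, 6.37, 6.36, 6.20 and 6.59 in P10 MatSep rats. In controls it read 8.26, 8.35, 8.50, 8.12 and 8.28 at P180, against 6.66, 6.14, 6.25, 6.19 and 6.78 at P10. Again no P180 array fell among the P10 arrays. The change of Nlrp6 with age on the log2 scale was 2.01 (SE 0.11, adjusted p = 1.2e-11) in MatSep rats and 1.90 (SE 0.11, adjusted p = 2.86e-11) in controls.

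Nlrp3 (transcript 17646330), the inflammasome sensor that responds to ion efflux and crystals, read 5.41, 5.71, 5.48, 6.09 and 5.94 in P180 MatSep rats, against 4.87, 4.88, 4.99, 4.88 and 4.76 in P10 MatSep rats. The controls gave 5.91, 6.24, 6.38, 6.09 and 5.98 at P180, against 4.94, 4.70, 4.96, 4.73 and 4.85 at P10. Its ages did not overlap in either arm. Its log2 fold change with age was 0.85 (SE 0.11, adjusted p = 3.58e-06) in MatSep rats and 1.28 (SE 0.11, adjusted p = 1.23e-08) in controls. Nlrp1a, another inflammasome sensor, rose by 0.99 and 1.28 (adjusted p = 6.91e-07 and 1.9e-08), whereas its neighbouring copy Nlrp1b had 0.14 and -0.09 (adjusted p = 0.293 and 0.508). Nlrp12, which restrains NF-kappaB signalling in mice, rose by 0.72 and 0.68, and Nod2, the sensor of muramyl dipeptide, by 0.47 and 0.51 (adjusted p between 1.03e-06 and 0.000567). Nod1, which senses another peptidoglycan fragment, passed in controls (0.33, adjusted p = 0.00755) and had 0.20 in MatSep rats (adjusted p = 0.0878). Nlrp4a and Nlrp5, known from germ cells in mice, rose in MatSep rats (0.39 and 0.34, adjusted p = 0.0035 and 0.00399) and had 0.12 and 0.03 in controls, where they did not pass. The transcript of Nlrp5 is dim. Nlrp4al1 had 0.23 in MatSep rats (adjusted p = 0.146) and rose by 0.45 in controls (adjusted p = 0.00788). The mitochondrial Nlrx1 (-0.17 and -0.04) and the dim Nlrp10 (-0.05 and 0.05) passed in neither arm.

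Among the Clec genes, 16 of 33 (48.5%) rose and 3 (9.09%) fell with age in MatSep rats, where 27.4% and 22.2% of all transcripts did. In controls 20 (60.6%) rose and 2 (6.06%) fell, where 24.7% and 20.6% of all transcripts did. Clec7a (transcript 17795399), known as dectin-1, the myeloid receptor for fungal beta-glucan, read 8.99, 9.16, 9.41, 9.33 and 9.48 in P180 MatSep rats, against 5.87, 6.14, 6.44, 6.61 and 6.17 in P10 MatSep rats. The controls gave 9.38, 9.71, 9.21, 9.14 and 9.40 at P180, against 5.76, 6.17, 5.66, 5.90 and 5.98 at P10. The 2 ages were separated by more than the spread of either. The log2 fold change with age was 3.03 (SE 0.13, adjusted p = 2.85e-13) in MatSep rats and 3.47 (SE 0.13, adjusted p = 3.44e-14) in controls, or 8.16-fold and 11.1-fold. Clec5a (transcript 17790903), a myeloid receptor that signals through Tyrobp, read 6.22, 6.05, 6.29, 6.36 and 6.36 in P180 MatSep rats, against 4.79, 4.60, 4.59, 4.76 and 4.79 in P10 MatSep rats. In controls it read 6.20, 6.41, 6.04, 6.29 and 6.24 at P180, against 4.86, 4.69, 4.95, 4.65 and 4.87 at P10. Both arms showed the same separation of ages. Clec5a thus differed between ages by 1.55 (SE 0.08, adjusted p = 3.15e-12) on the log2 scale in MatSep rats and by 1.43 (SE 0.08, adjusted p = 9.65e-12) in controls.

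Clec4a1 (transcript 17786945), a member of the dendritic cell immunoreceptor branch, read 9.04, 8.88, 9.22, 9.31 and 9.0 in P180 MatSep rats, against 6.12, 6.82, 7.0, 7.01 and 7.01 in P10 MatSep rats. Controls gave 9.03, 9.44, 9.22, 9.32 and 9.40 at P180, against 6.36, 6.32, 6.30, 6.09 and 5.64 at P10. Among the P10 MatSep arrays, replicate 1 stood below the other 4, and all P10 arrays lay below all P180 arrays. As a log2 fold change this came to 2.30 (SE 0.16, adjusted p = 2.58e-10) in MatSep rats and 3.14 (SE 0.16, adjusted p = 1.86e-12) in controls. Clec4a3 (transcript 17786952), its neighbour in the genome and of the same branch, read 9.32, 9.47, 9.61, 9.75 and 9.22 in P180 MatSep rats, against 6.86, 7.09, 7.54, 7.38 and 7.65 in P10 MatSep rats. For controls the values were 9.68, 9.87, 9.59, 9.64 and 9.56 at P180, against 6.82, 6.95, 6.93, 6.76 and 6.41 at P10. The ages stood apart in both arms here too. Set between ages, Clec4a3 changed by 2.17 (SE 0.14, adjusted p = 6.6e-11) on the log2 scale in MatSep rats and by 2.90 (SE 0.14, adjusted p = 6.74e-13) in controls.

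These 2 genes stand at one end of a row of Clec4 relatives on chromosome 4, which holds 26 of the 33 Clec genes and Nod1. In RefSeq gene order (assembly GRCr8) the row runs Clec4a1, Clec4a3, Clec4a2, Clec4a, Clec4b2, Clec6a-ps1, Clec4d and Clec4e. Counting protein-coding genes and pseudogenes together, 1 other lies in it, between Clec6a-ps1 and Clec4d. In MatSep rats the log2 fold changes with age along the row were 2.30, 2.17, 0.70, 0.32, 0.26, 0.23, 0.40 and 0.04, which falls along the row except at Clec4d. In controls they were 3.14, 2.90, 0.94, 0.67, 0.48, 0.40, 0.20 and 0.18, which falls at each step. The last step, between Clec4d and Clec4e, was smaller than the SE of either (0.08). Clec4a2, the inhibitory receptor of the branch in mice, rose in both arms (adjusted p = 1.01e-05 and 2.1e-07), as did Clec4a (adjusted p = 0.0383 and 0.000186). Clec4e, known as Mincle, a receptor for mycobacterial glycolipid, passed in neither (adjusted p = 0.731 and 0.0826), and its partner Clec4d passed in both (adjusted p = 0.000224 and 0.0385). Clec6a-ps1 passed in both arms (adjusted p = 0.0194 and 0.000276), and Clec4b2 passed in controls (adjusted p = 0.00244) with 0.0717 in MatSep rats. Clec4b2, Clec4d and Clec4e are dim, and Clec6a-ps1 is annotated as a pseudogene, and all 4 lie at the end of the row with the small changes. Clec4a2 and Clec4a were also low at P10, with means of 5.07 and 4.75 in controls.

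**Figure D3:**
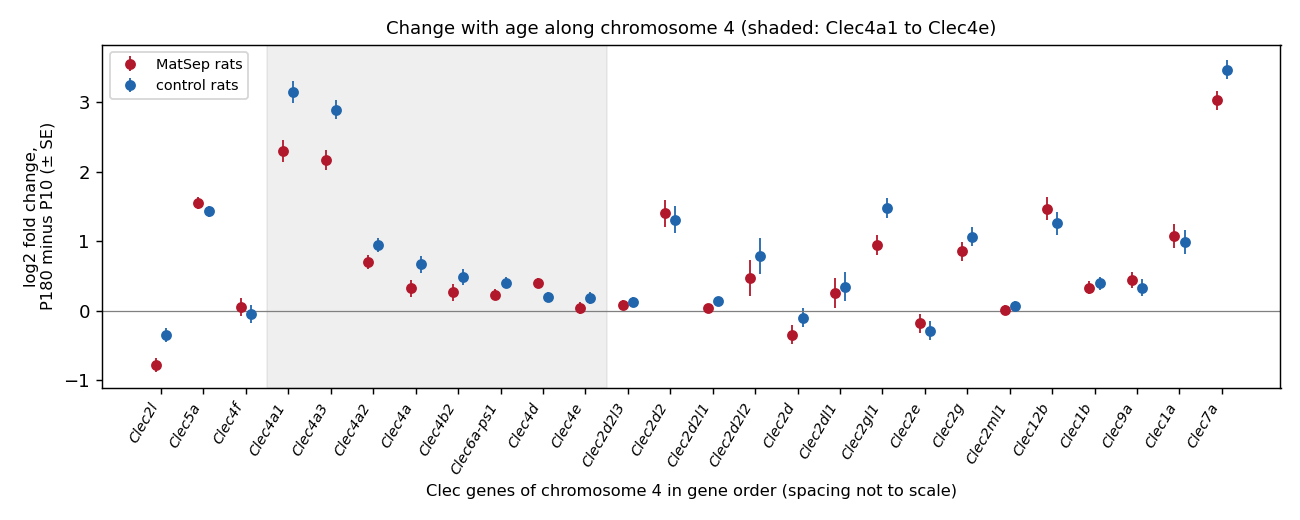
Log2 fold change between ages (P180 minus P10, with SE) for the 26 Clec genes of chromosome 4 in gene order, spacing not to scale, MatSep rats in red and controls in blue, 5 rats per group. Within the shaded row the change in controls is 3.14 at Clec4a1 and 0.18 at Clec4e, and Clec7a at the far end has 3.47.

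The start regions of 5 genes are shown because they span the response: 3 large rises (Clec7a, Clec4a1 and Clec4a3), a neighbour that did not pass (Clec4e) and the gene with the largest fall (Clec11a). Each is 250 bases before to 50 bases after the start that RefSeq gives on assembly GRCr8, 5′ to 3′ along the gene, and capitals mark every match to GAGGAA (a core of ETS factor sites) or GAAANNGAA (a core of interferon response elements) on either strand.
Clec7a, chr4:164599778-164600077, minus strand: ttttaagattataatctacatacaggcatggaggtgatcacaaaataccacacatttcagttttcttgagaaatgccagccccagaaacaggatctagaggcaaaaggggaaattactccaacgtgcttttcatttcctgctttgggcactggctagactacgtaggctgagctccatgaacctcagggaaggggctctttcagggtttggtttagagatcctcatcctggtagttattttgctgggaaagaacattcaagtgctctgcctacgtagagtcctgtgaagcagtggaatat
Clec4a1, chr4:157845561-157845860, plus strand: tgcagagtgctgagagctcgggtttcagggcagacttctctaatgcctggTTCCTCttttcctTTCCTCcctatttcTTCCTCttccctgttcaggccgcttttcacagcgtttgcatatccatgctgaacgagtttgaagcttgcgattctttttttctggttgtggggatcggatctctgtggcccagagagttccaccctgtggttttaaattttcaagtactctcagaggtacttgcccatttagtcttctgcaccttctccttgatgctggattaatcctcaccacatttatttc
Clec4a3, chr4:157886508-157886807, plus strand: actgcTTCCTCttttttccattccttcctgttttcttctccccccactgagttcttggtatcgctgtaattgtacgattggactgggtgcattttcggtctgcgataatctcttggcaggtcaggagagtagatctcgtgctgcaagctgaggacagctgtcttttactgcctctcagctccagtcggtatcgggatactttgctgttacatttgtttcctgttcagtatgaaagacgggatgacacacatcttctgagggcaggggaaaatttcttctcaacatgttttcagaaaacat
Clec4e, chr4:158298418-158298717, minus strand: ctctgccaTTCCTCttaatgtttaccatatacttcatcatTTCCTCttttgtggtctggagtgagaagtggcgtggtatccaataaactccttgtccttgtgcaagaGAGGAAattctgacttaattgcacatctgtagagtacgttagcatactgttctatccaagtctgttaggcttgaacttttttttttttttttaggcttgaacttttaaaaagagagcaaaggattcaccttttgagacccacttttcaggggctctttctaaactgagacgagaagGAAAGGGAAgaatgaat
Clec11a, chr1:103941121-103941420, minus strand: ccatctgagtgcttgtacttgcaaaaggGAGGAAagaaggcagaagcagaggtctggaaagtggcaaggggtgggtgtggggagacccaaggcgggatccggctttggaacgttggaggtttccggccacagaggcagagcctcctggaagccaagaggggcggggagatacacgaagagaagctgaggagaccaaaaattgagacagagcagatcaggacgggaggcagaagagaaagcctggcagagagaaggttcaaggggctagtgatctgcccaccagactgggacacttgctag

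In these windows the Clec4a1 region held 3 GAGGAA matches, Clec4a3 held 1, Clec4e held 3 and also 1 GAAANNGAA match, Clec11a held 1 GAGGAA match, and Clec7a held neither motif. Over both strands, GAGGAA was found in 27.6% of all 33469 start regions of the table and in 20 of the 46 receptor genes that had one (43.5%). It was in 10 of the 27 that rose with age in controls (37%), 2 of the 4 that fell (50%) and 8 of the 15 that did not pass (53.3%). Of the 7 genes of the Clec4 row with a start region, 6 held it (85.7%). GAAANNGAA was in 9.71% of all start regions and in 9 of the 46 (19.6%). The start regions of Clec4a1 and Clec4a3 were identical at 191 of 365 aligned positions (52.3%), near the 50% to 53.7% of Clec4a1 against the other genes of the row and Clec7a, while Clec4a2 and Clec4a shared 70.5% of 329. Start regions of unrelated genes were not aligned, so these shares have no baseline and do not show conservation. A motif match describes these letters and shows no binding.

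The other Clec receptors of the chromosome fell into members that rose and members that did not. Clec2gl1 (0.95 and 1.48), Clec2g (0.85 and 1.06) and Clec2d2 (1.40 and 1.31), of the group that in rodents holds ligands of Klrb1 receptors of natural killer cells, rose in MatSep rats and in controls (largest adjusted p = 2.83e-05). The transcript of Clec2gl1 is dim, and the group holds close copies. Of their dim copies, Clec2d2l2 (0.78, adjusted p = 0.0184) and Clec2d2l1 (0.15, adjusted p = 0.0268) rose in controls, with 0.47 and 0.05 in MatSep rats, and Clec2d2l3, Clec2dl1 and Clec2ml1 passed in neither arm, nor did Clec2e (-0.18 and -0.28). Clec2d, a ligand of Klrb1 receptors, had -0.35 in MatSep rats (adjusted p = 0.0442) and -0.10 in controls (adjusted p = 0.577). Its fall in MatSep rats lost the threshold under 10 alternatives, 8 of which left out 1 array. Clec12b, an inhibitory receptor, rose by 1.47 and 1.26 (adjusted p = 3.53e-07 and 2.87e-06). Clec1a, found on endothelium and dendritic cells, rose by 1.07 and 0.99 (adjusted p = 4e-05 and 0.000104). Clec9a, the receptor of conventional dendritic cells for exposed actin, rose by 0.44 and 0.33 (adjusted p = 0.00433 and 0.0285), and Clec1b, the podoplanin receptor of platelets, by 0.33 and 0.39 (adjusted p = 0.00665 and 0.00179). Clec14a, an endothelial membrane protein coded elsewhere in the genome, rose by 0.36 in both arms (adjusted p = 0.00994 and 0.0112). Clec10a, the galactose-type lectin of macrophages, had 0.01 in MatSep rats (adjusted p = 0.973) and rose by 0.62 in controls (adjusted p = 0.0012). Clec16a, an autophagy regulator, Clec3a, a cartilage protein, Clec4f, a lectin of liver macrophages, and Clec4g and Clec4m, lectins of sinusoidal endothelium, passed in neither arm, with changes between -0.12 and 0.12.

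The largest fall was that of Clec11a (transcript 17632361), a secreted growth factor of stromal cells for blood and bone progenitors. It read 6.0, 5.99, 6.17, 5.85 and 6.11 in P180 MatSep rats, against 7.82, 8.31, 8.59, 8.43 and 8.37 in P10 MatSep rats. The controls gave 6.77, 6.77, 6.73, 6.20 and 6.23 at P180, against 7.12, 7.98, 7.64, 7.30 and 6.85 at P10. Every P180 array lay below every P10 array, and 4 of the 5 P10 MatSep arrays lay above all others. The change of Clec11a with age on the log2 scale was -2.28 (SE 0.18, adjusted p = 2.01e-09) in MatSep rats and -0.84 (SE 0.18, adjusted p = 0.000715) in controls. Clec2l (transcript 17782582) read 6.83, 6.92, 6.62, 6.82 and 6.70 in P180 MatSep rats, against 7.66, 7.79, 7.70, 7.40 and 7.24 in P10 MatSep rats. In the controls the values were 6.95, 7.20, 6.98, 7.0 and 7.0 at P180, against 7.44, 7.72, 7.24, 7.20 and 7.26 at P10. The ages did not overlap in either arm, by a narrow margin in controls. Its log2 fold change with age was -0.78 (SE 0.11, adjusted p = 4.38e-06) in MatSep rats and -0.35 (SE 0.11, adjusted p = 0.0109) in controls. The control value lost the threshold when each array was centred on its median (-0.32) and after a further quantile normalization (-0.24).

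The signalling partners of these receptors were counted from lists that hold none of the 57 genes. Over all transcripts, 27.4% rose and 22.2% fell with age in MatSep rats, and 24.7% and 20.6% in controls. Of 24 Toll-like receptor co-receptors, adaptors and kinases, 12 rose and 3 fell in MatSep rats, and 11 rose and 2 fell in controls. Ly86 and Cd180, which form a receptor complex related to Tlr4 on antigen-presenting cells, rose by 2.69 and 1.39 in MatSep rats and by 2.91 and 1.94 in controls. Unc93b1, the chaperone of endosomal Toll-like receptors, rose by 0.60 and 0.72 and Irf5 by 0.67 and 0.85 in MatSep rats and in controls. The Tlr4 co-receptors Cd14 (-0.10 and 0.10) and Ly96 (-0.11 and 0.17) did not pass, and the kinase Map3k7 fell by 0.27 in MatSep rats and fell by 0.28 in controls. Of 6 inhibitors of the pathway, 3 rose in MatSep rats and 4 in controls, Nfkbia by 0.95 and 1.11, and none fell. In the inflammasome and NOD list, 10 of 15 rose in MatSep rats and 12 in controls, with none lower. Il18 rose by 2.69 and 3.11, the ATP-gated channel P2rx7 by 2.02 and 1.87, Casp1 by 1.43 and 1.80, and the adaptor Pycard by 0.98 and 1.17. In the C-type lectin signalling list, 8 of 10 rose in MatSep rats and 7 in controls, again with none lower. The adaptors Fcer1g and Tyrobp rose by 2.20 and 1.71 in MatSep rats and by 2.88 and 2.28 in controls, and the inhibitory phosphatase Ptpn6 rose by 1.17 and 1.18. Among 20 lectin-fold receptors with other symbols, 11 rose and 4 fell in MatSep rats, and 10 rose and 4 fell in controls. Klrk1 rose by 2.66 and 2.91, whereas the endothelial Cd93 fell by 1.37 in MatSep rats and fell by 1.02 in controls, and Mrc2, a relative of the mannose receptor, fell by 1.64 in MatSep rats and fell by 0.85 in controls.

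Cell type markers moved with age as well, some lists more than others. The shares of all transcripts were 27.4% higher and 22.2% lower at P180 in MatSep rats, and 24.7% and 20.6% in controls. Of 16 macrophage markers, 13 rose and 1 fell in MatSep rats, and 12 rose and 1 fell in controls. The mean of the list lay between 7.99 and 8.22 on the P180 MatSep arrays and between 8.10 and 8.22 on the P180 control arrays, against 6.63 to 7.01 on the P10 MatSep arrays and 6.49 to 6.78 on the P10 control arrays. The ages did not overlap in this mean, which moved with the myeloid receptors described above, and its part in their change was not tested. Mrc1, the macrophage mannose receptor, was the marker that fell (-1.21 in MatSep rats and -0.75 in controls). Of 9 dendritic cell markers 6 rose in each arm, with 1 lower in MatSep rats, and of 11 T and NK cell markers 9 rose in MatSep rats and 8 in controls. Neutrophil markers gave 1 rise and 1 fall among 10 in MatSep rats and 1 rise in controls. B cell markers gave 2 rises among 6 in MatSep rats, and 1 rise and 1 fall in controls, and the 6 platelet markers gave none in MatSep rats and 1 rise in controls. Smooth muscle markers gave 3 rises among 8 in MatSep rats and 7 in controls, with none lower. Endothelial markers gave 2 rises and 5 falls among 12 in each arm. Adipocyte markers gave 7 falls among 9 in MatSep rats, and 1 rise and 1 fall in controls. Tubule markers gave 4 rises and 1 fall among 13 in MatSep rats, and 4 rises and 4 falls in controls. Fibroblast markers ran opposite to the receptors: 10 of 12 fell and 2 rose in MatSep rats, and 8 fell and 3 rose in controls. The mean of that list was 8.20 to 8.71 on the P180 MatSep arrays and 8.27 to 8.82 on the P180 control arrays, against 9.83 to 10.37 on the P10 MatSep arrays and 8.98 to 10.00 on the P10 control arrays, and its order over the groups was that of Clec11a. Its part in the fall of Clec11a was not tested.

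Whether MatSep changed these genes while it was under way was addressed at P10. None of the 57 genes passed at P10, where 0.0162% of all transcripts (3) passed as higher in MatSep neonates and 0% as lower. At an unadjusted p under 0.05, 5 genes were higher, all of them Clec genes, and 1 (Nlrp1b) was lower, where 5.1% and 4.57% of all transcripts were. The median log2 difference over the 57 genes was 0.04, against -0.005 over all transcripts. None of the 57 genes was without overlap between the 2 groups, where 0.724% of all transcripts lay wholly above and 0.945% wholly below the controls.

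**Figure D4:**
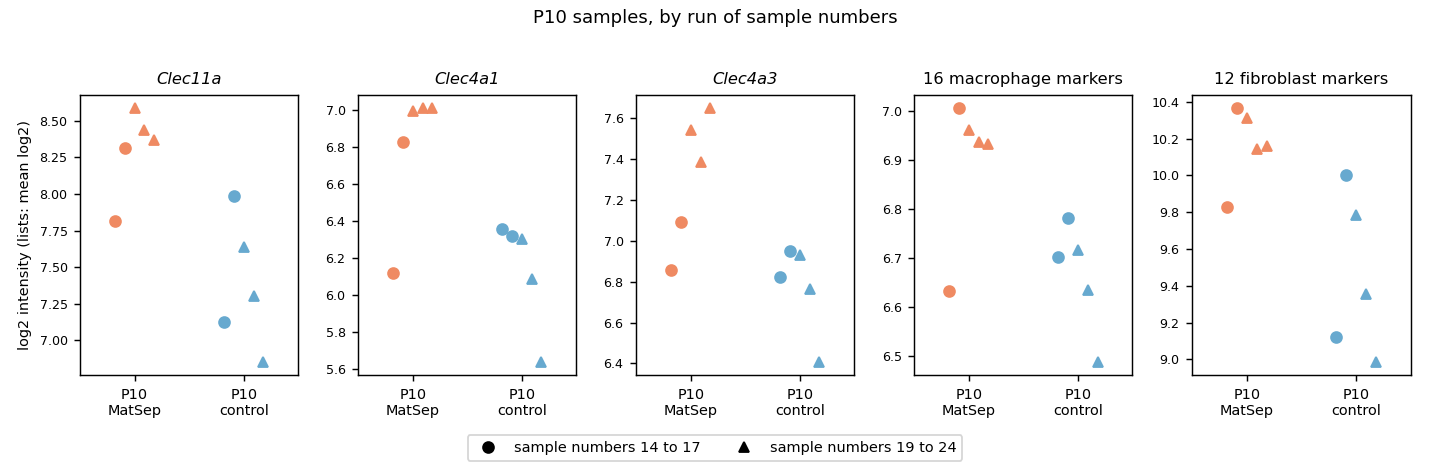
Log2 intensity of the receptor genes nearest the threshold at P10, and the mean log2 intensity of 16 macrophage and 12 fibroblast markers, 1 point per neonate, MatSep left of control, with circles for sample numbers 14 to 17 and triangles for 19 to 24. For Clec4a1, the MatSep neonate of replicate 1 lies at 6.12 and the other 4 lie between 6.82 and 7.01.

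Clec11a was 7.82, 8.31, 8.59, 8.43 and 8.37 in MatSep neonates, against 7.12, 7.98, 7.64, 7.30 and 6.85 in control neonates. All 5 MatSep neonates lay above the control mean, and the groups overlapped because MatSep replicate 1 lay below control replicate 2. The difference was 0.92 (SE 0.18, unadjusted p = 5.2e-05, adjusted p = 0.119), or 1.9-fold, and did not pass over all transcripts. Without MatSep replicate 1 the adjusted p was 0.0167, and without control replicate 2 it was 0.00572. Leaving out each array in turn gave an adjusted p from 0.00572 to 0.384, and Clec11a did not pass under 18 of 22 alternatives. The labels number the neonates in 2 runs, 14 to 17 and 19 to 24, each with MatSep and control rats, and the difference was 0.51 within the first run and 1.20 within the second. With the runs as a block the adjusted p was 0.092.

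Clec4a1 was 6.12, 6.82, 7.0, 7.01 and 7.01 in MatSep neonates, against 6.36, 6.32, 6.30, 6.09 and 5.64 in control neonates. The MatSep neonate of replicate 1 lay among the controls, and the other 4 lay above the control mean. The difference was 0.65 (SE 0.16, adjusted p = 0.166), with 0.13 within the first run and 1.0 within the second. Clec4a3 was 6.86, 7.09, 7.54, 7.38 and 7.65 in MatSep neonates, against 6.82, 6.95, 6.93, 6.76 and 6.41 in control neonates. All 5 MatSep neonates lay above the control mean, with overlap. Its difference was 0.53 (SE 0.14, adjusted p = 0.202), with 0.09 and 0.83 within the runs. Without MatSep replicate 1, the adjusted p was 0.0102 for Clec4a1 and 0.0386 for Clec4a3. With other arrays left out it was as high as 0.532 and 0.620, and each of these genes did not pass under 20 of 22 alternatives. The myeloid lectins Clec7a (0.35, adjusted p = 0.395) and Clec10a (0.32, adjusted p = 0.475) were the other 2 with an unadjusted p under 0.05. Below the controls, Nlrp1b read 5.03, 5.30, 5.23, 5.14 and 5.51 in MatSep neonates, against 5.62, 5.39, 5.56, 5.53 and 5.52 in control neonates. Its MatSep values all lay below the control mean and overlapped the control values. Its difference was -0.28 (SE 0.11, adjusted p = 0.373). Tlr3 (-0.19), the dim Clec3a (-0.12) and Nlrp5 (-0.17), and Nod2 (-0.17) came next, with adjusted p of 0.529 or more.

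None of the listed partner genes passed at P10. Fcer1g, the adaptor of several Clec receptors, had the smallest p, with a difference of 0.60 (adjusted p = 0.153), followed by Cd209a, a lectin related to DC-SIGN, with -0.73 (adjusted p = 0.237), Mrc1 with 0.45 (adjusted p = 0.247), Il18 with 0.34 (adjusted p = 0.283) and Cd180 with 0.42 (adjusted p = 0.339). Some marker lists stood higher as well, and no marker of any list passed. In MatSep neonates 14 of 16 macrophage markers were higher with a median of 0.19, and 12 of 12 fibroblast markers with a median of 0.51. So were 9 of 9 adipocyte markers with a median of 0.89 and 8 of 8 smooth muscle markers with a median of 0.55. Other lists did not stand higher. Higher in MatSep neonates were 2 of 13 tubule markers (median -0.06), 3 of 9 dendritic cell markers (-0.04) and 5 of 12 endothelial markers (-0.006). For neutrophil markers it was 4 of 10 (-0.03), and for platelet markers 2 of 6 (-0.03). B cell markers gave 3 of 6 (0.003), and T and NK cell markers 6 of 11 (0.004). The adipocyte mean lay between 7.42 and 8.93 in MatSep neonates and between 5.99 and 8.51 in control neonates. MatSep replicate 1 had the lowest macrophage (6.63), fibroblast (9.83) and adipocyte (7.42) mean of its group, and control replicate 2 had the highest of its group (6.78, 10.00 and 8.51), the same neonates on which the adjusted p of Clec11a turned. The part of these cell types in the differences was not tested.

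At P180, long after separation had ended, again none of the 57 genes passed, where 0.0162% of all transcripts passed as higher and 0.0162% as lower. At an unadjusted p under 0.05, 1 gene (Clec4d) was higher and 10 were lower in MatSep rats (4 Nlr and 6 Clec), where 2.65% and 3.11% of all transcripts were. The median over the 57 genes was -0.06, against -0.0016 over all transcripts. Nlrp3 was 5.41, 5.71, 5.48, 6.09 and 5.94 in P180 MatSep rats, against 5.91, 6.24, 6.38, 6.09 and 5.98 in P180 controls. All 5 MatSep rats lay below the control mean, and the groups overlapped. The difference was -0.39 (SE 0.11, adjusted p = 0.41) with a 95% confidence interval -0.63 to -0.15. That interval is not adjusted for the number of transcripts tested, so it does not show a pass. It was -0.64 among the samples numbered 1 to 6 and -0.01 among those numbered 8 to 11, so the difference lay in the first run.

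Clec2d was 5.11, 4.72, 5.03, 5.10 and 5.27 in P180 MatSep rats, against 5.62, 5.31, 5.03, 5.91 and 5.73 in P180 controls. Every MatSep rat again lay below the control mean. The difference was -0.47 (SE 0.14, adjusted p = 0.41), and -0.37 and -0.63 within the runs. Clec11a was 6.0, 5.99, 6.17, 5.85 and 6.11 in P180 MatSep rats, against 6.77, 6.77, 6.73, 6.20 and 6.23 in P180 controls. Here all MatSep rats lay below all controls by a narrow margin, with 6.174 as the highest MatSep value and 6.196 as the lowest control. Among samples 1 to 6 the MatSep rats had 6.0, 5.99 and 6.17, against 6.77, 6.77 and 6.73. Among samples 8 to 11 they had 5.85 and 6.11, against 6.20 and 6.23, so the groups lay closer together there. At P10 the MatSep values of Clec11a were the higher ones. Of 12 fibroblast markers, 10 were lower in P180 MatSep rats and none passed, and their part in this difference was not tested. The difference was -0.51 (SE 0.18, adjusted p = 0.592). Clec2l, with -0.25 (adjusted p = 0.789), was the other gene of the 57 whose groups did not overlap. These 2 lay below the controls and none lay above, where 0.47% of all transcripts lay wholly below and 0.34% wholly above. Clec2gl1 (-0.39), Clec10a (-0.29), Nlrp1a (-0.24), Nlrc5 (-0.23), Clec4a2 (-0.22) and Nod2 (-0.21) completed the 10, with adjusted p between 0.64 and 0.863. Above the controls, the dim Clec4d had 0.21 (adjusted p = 0.625), and Tlr12 had 0.30 with a 95% confidence interval -0.08 to 0.67. Of the rising myeloid receptors, Clec7a differed by -0.09 (95% confidence interval -0.38 to 0.19) and Tlr7 by -0.04 (95% confidence interval -0.35 to 0.27). None of the partner genes passed, and Olr1, the oxidised lipoprotein receptor, had -0.70 (adjusted p = 0.154) and Il1b -0.41 (adjusted p = 0.199). The macrophage mean overlapped between the groups (7.99 to 8.22 in MatSep rats and 8.10 to 8.22 in controls), and 11 of its 16 markers were lower in MatSep rats with a median of -0.05. The dendritic cell mean did not overlap: its highest MatSep array was at 6.507 and its lowest control array at 6.514, and 6 of 9 markers were lower in MatSep rats with a median of -0.13. Of the smooth muscle markers, 8 of 8 were lower with a median of -0.08. None of these markers passed, and their part in the lower values of the Nlr and Clec genes was not tested.

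**Figure D5:**
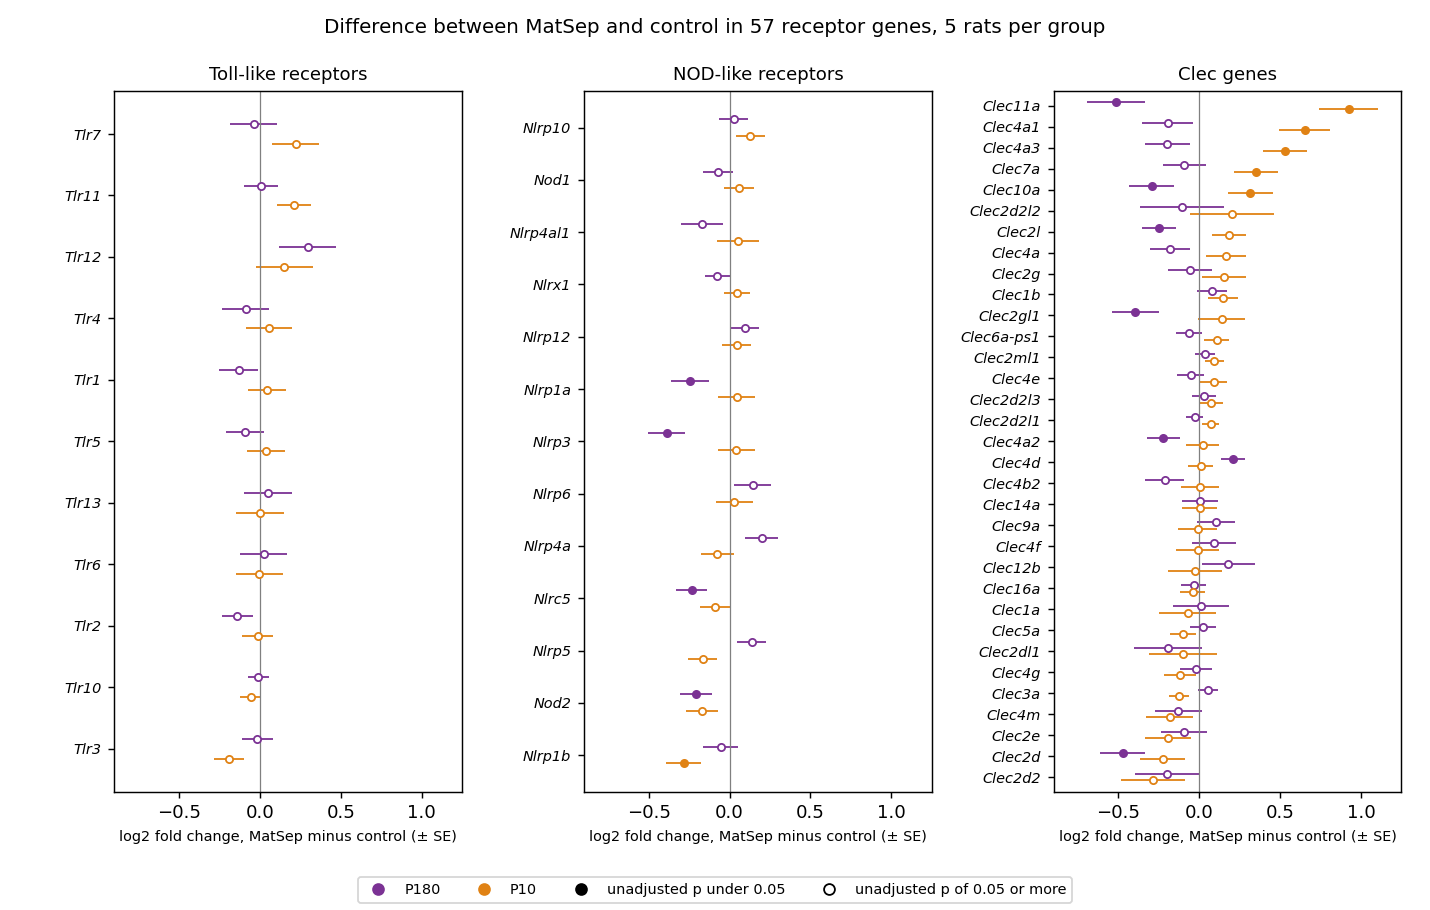
Log2 difference between MatSep and control rats (log2 intensity, with SE) for the 57 genes at P180 (purple) and at P10 (orange), 5 rats per group, filled where the unadjusted p is under 0.05. None has an adjusted p under 0.05, and Clec11a stands furthest from 0 at both ages, with -0.51 at P180 and 0.92 at P10.

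The change of the MatSep difference between ages was tested directly, as the difference at P180 minus that at P10. None of the 57 genes passed, nor did any of the 18511 transcripts (0% in either direction), and at an unadjusted p under 0.05, 1 gene (Nlrp5) was positive and 8 were negative, where 4.08% and 4.96% of all transcripts were. Clec11a had -1.44 (SE 0.25, adjusted p = 0.0816), its MatSep difference being positive at P10 and negative at P180. It did not pass under 25 of 31 alternatives, with an adjusted p as high as 0.303, and passed under 6. These 6 were array weights (0.0116), the runs of sample numbers as a block (0.0378) and the replicate number as a block (0.0404). The others left out P180 control replicate 4 (0.0175), P10 MatSep replicate 1 (0.0192) or P10 control replicate 2 (0.0176). Clec4a1 had -0.85 (adjusted p = 0.207) and Clec4a3 -0.73 (adjusted p = 0.209). Clec4a1 passed without P10 MatSep replicate 1 (0.0344) and with array weights (0.0427), and did not pass under 29 of 31 alternatives. For Clec4a3, 30 of 31 did not pass. Clec10a (-0.61), Clec2gl1 (-0.53), Clec7a (-0.44), Nlrp3 (-0.43) and Clec2l (-0.43) were the other negative ones, and Nlrp5 was the positive one (0.30), with adjusted p between 0.319 and 0.49. Fibroblast markers ran the same way, with 12 of 12 negative and a median of -0.97, and 9 of 9 adipocyte markers were negative with a median of -1.19. Macrophage markers were negative in 13 of 16 cases with a median of -0.38, 8 of them at an unadjusted p under 0.05, where 1 was positive, and smooth muscle markers in 8 of 8 with a median of -0.59. None of the markers of these 4 lists passed, and their part was not tested. For the Toll-like receptors the difference between ages lay between -0.26 and 0.18, with no gene at an unadjusted p under 0.05.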

How the data were processed

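Renal vessel RNA of 20 rats was hybridised to 1-colour whole-transcript arrays. Per the labels, the deposited intensities were made with RMA, and the authors' methods name Partek for the analysis. The deposited workbook calls its gene-level intensities quantile-normalized. Tool versions are not given in the sources used here, and array spot files were not used here. The other sheets of the workbook hold the authors' comparisons of groups and were not used.

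Log2 of the intensities was taken with no further normalization. Of 36685 transcripts, 18511 had 1 gene symbol in the platform annotation, 575 had several and 17599 had none. Only those with 1 symbol were tested, and 3 transcripts that name a receptor gene among several symbols were left out. limma 3.58.1 (lmFit and eBayes, R 4.3.3) fitted 1 mean per group over all 20 arrays with 16 residual degrees of freedom, two-sided tests and Benjamini-Hochberg adjustment over 18511 transcripts, with a threshold of 0.05. The procedure was first tested on simulated data. Precision is limited by the number of arrays.

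The receptor genes, signalling lists and marker lists were chosen with earlier results of these data known. Genes were named as the 10 largest rises and falls that passed in a contrast and, where fewer than 5 passed in a direction, the 5 of smallest p. Other genes were named to account for all 57, and signalling genes and start regions were picked after their values were seen. All 57 matched RefSeq (assembly GRCr8) by gene identifier, and 46 had a start region there. Alternatives were other scalings, variance models, filters and annotations, array weights, blocks for replicate number and for runs of sample numbers, and leaving out each array. The labels do not say which rats shared a litter, so p-values measure the spread between rats without it. Members that differed between the 2 runs of sample numbers were 3 of 57 at P10 (2930 of all transcripts) and 0 of 57 at P180 (459). At P10 Clec1a and Clec2g were higher in the later run (by 0.60 and 0.48 on the log2 scale), and Clec2l differed by -0.31. Their changes with age carry this limit. Each run holds rats of 1 age alone, so run and age cannot be told apart for any of the 57 genes.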

Additional observations from a re-analysis of the deposited data

Results flagged for a closer look

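Single rats far from the rest of their group of 5 were sought in the 25 receptor genes named by rule, by Dixon's gap test. It marked 6 of 100 gene and group pairs, and chance alone marks about 1 in 20.

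Clec4a1 was 6.12 in P10 MatSep replicate 1, where the next lowest neonate of the group had 6.82. This rat also had the lowest macrophage marker mean of its group (6.63), and the part of that in the value was not tested.

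Tlr12 was marked in 2 groups, with 7.48 in P180 MatSep replicate 4 (the next lowest rat had 8.27) and 5.22 in P10 control replicate 5 (the next highest had 5.01).

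Clec2l was 7.20 in P180 control replicate 2 (next 7.0). Nlrc5 was 5.35 in P10 MatSep replicate 3 (next 5.13). The dim Clec4d was 4.66 in P180 MatSep replicate 2 (next 5.03).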

How the results depend on the processing

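The counts of receptor genes that passed with age moved little: in MatSep rats 33 passed, with 31 to 34 when 1 array was left out, and in controls 38 passed, with 35 to 39. With MatSep at P180, 0 passed under every alternative run. With MatSep at P10, 0 passed, but 3 did with array weights (Clec11a, Clec4a1 and Clec4a3), and leaving out 1 array gave 0 to 3, the 3 being the same genes without P10 MatSep replicate 1. The test of the change between ages gave 0, but 3 with array weights (the same genes) and 1 (Clec11a) with the runs of sample numbers as a block, and 0 to 2 when 1 array was left out. The cause was not tested.

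With the replicate number as a block, 1 gene passed at P10 and 1 for the change between ages (both Clec11a, adjusted p = 0.0479 and 0.0404). Deviations of rats with the same number correlated at 0.09 to 0.61 at P10 and -0.21 to 0.21 at P180, and the labels do not say that a number marks a litter, so the numbers were not taken to pair the rats.

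No named gene reversed. Over all transcripts, the calls with MatSep were 3 at P10 and 6 at P180, and none for the change between ages. They ranged over 0 to 485 at P10 and 0 to 128 for the change between ages, the most with array weights, and over 0 to 38 at P180. Calls with age were 9187 in MatSep rats and 8392 in controls, and 14262 and 13929 when all 36685 transcripts were tested. Clec2e passed with age in controls with array weights (-0.38) and without P10 control replicate 2 (-0.41). Low signal limits the 14 dim genes.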
